A study of Bos taurus with 10 samples.

Results

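CD14, TLR2 and TLR4 are surface receptors through which monocytes, macrophages and neutrophils sense bacteria, and their transcripts were followed in the circulating white blood cells of 10 Holstein heifers. The genes were taken by their Ensembl IDs, ENSBTAG00000015032 for CD14, ENSBTAG00000008008 for TLR2 and ENSBTAG00000006240 for TLR4, and all 3 were found among the 27570 IDs counted in each library. The heifers had not calved before and had each received a fresh embryo fertilised in vitro. On day 21 after transfer 5 were diagnosed pregnant and 5 non-pregnant, and each animal gave 1 RNA sequencing library. Neither the labels nor the design text used here give the animals' ages, the sampling day, blood cell counts or a library batch.

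CD14 is an anchored surface protein without a signalling domain of its own that hands bacterial lipopolysaccharide to the complex of TLR4 with its partner MD-2. TLR4 is the signalling receptor for lipopolysaccharide of Gram-negative bacteria. TLR2 pairs with TLR1 or TLR6 to recognise bacterial lipoproteins, many of them from Gram-positive bacteria, and CD14 can serve it as a co-receptor too. TLR2 and TLR4 both signal through the adaptor MyD88 to NF-kB. In blood, CD14 is chiefly a monocyte marker, whereas TLR2 and TLR4 are found on monocytes and neutrophils. In a bulk sample, fewer cells of a type and less RNA per cell cannot be told apart.

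The libraries held between 14146666 and 22146290 counts. In the test across all genes, 14165 IDs passed the filter on low counts, the 3 receptors among them, and edgeR's quasi-likelihood test called 0 IDs at an adjusted p of 0.05. The lowest adjusted p was 0.651, 715 IDs (5.05%) had an unadjusted p under 0.05, and DESeq2 on the same IDs called 9. On the first principal component of all tested IDs, pregnant heifer 5 and non-pregnant heifer 1 scored highest (62.6 and 33.9), and non-pregnant heifers 3 and 4 scored lowest (-36.3 and -34.4). Heifer 2 of each group stood apart on the second (52.3 and 41.1).

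Of the 3 receptors, none was called between pregnant and non-pregnant heifers, beside a background of 0% of all IDs tested. TLR2 stood highest in pregnant animals relative to non-pregnant ones, by 1.47-fold, with no overlap between the groups. CD14 was 1.42-fold higher on average with overlapping groups, and TLR4 differed by 1.14-fold with overlapping groups. At an unadjusted p under 0.05, CD14 and TLR2 were both higher in pregnant heifers, where 2.24% of all IDs were. TLR2 was the only 1 of the 3 whose pregnant animals all lay above all non-pregnant ones, which was so for 0.346% of all IDs.

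CD14, the lipopolysaccharide co-receptor, was counted between 451 and 1598 times per library. Levels are given as CPM, the count of a gene scaled to a common library size after TMM correction of the totals. In pregnant heifers 1 to 5 CD14 stood at 34.9, 47.3, 39.1, 61.0 and 86.0 CPM. In non-pregnant heifers 1 to 5 it stood at 47.2, 36.8, 29.0, 34.4 and 41.6 CPM. Pregnant heifers 4 and 5 were the highest of all 10, pregnant heifer 2 barely exceeded non-pregnant heifer 1, and pregnant heifers 1 and 3 lay within the range of the non-pregnant group. The pregnant group averaged 53.7 ± 20.6 CPM and the non-pregnant group 37.8 ± 6.92 CPM (SD, n = 5 each). The log2 fold change was 0.51 (SE 0.23, 95% interval 0.02 to 0.99; edgeR unadjusted p = 0.0437, adjusted p = 0.978). An exact two-sided permutation test on log2 CPM gave p = 0.135 for this gene alone. Pregnant heifer 5 carried much of the difference: without it the log2 fold change was 0.27 (edgeR unadjusted p = 0.177, adjusted p = 0.998). It was 0.24 with the first principal component as a covariate (edgeR unadjusted p = 0.135, adjusted p = 0.953). That component was computed from IDs that included CD14, and its r with CD14 was 0.876 over the 10 heifers. Without non-pregnant heifers 3 and 4 the log2 fold change was 0.36 (edgeR unadjusted p = 0.213, adjusted p = 1).

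TLR2, the lipoprotein receptor, was counted between 1307 and 3475 times per library. In pregnant heifers 1 to 5 it stood at 144.9, 182, 157, 161 and 185 CPM. In non-pregnant heifers 1 to 5 it stood at 122, 128, 102, 86.0 and 128 CPM. Every pregnant animal exceeded every non-pregnant one, the nearest neighbours across the gap being pregnant heifer 1 and non-pregnant heifer 5. The pregnant group averaged 166 ± 17.1 CPM and the non-pregnant group 113 ± 18.4 CPM (SD, n = 5 each). The log2 fold change was 0.55 (SE 0.14, 95% interval 0.25 to 0.85; edgeR unadjusted p = 0.00135, adjusted p = 0.871). By its unadjusted p TLR2 ranked 18 of the 14165 IDs tested. The interval is for 1 gene taken alone, and the difference did not pass the adjustment over all IDs. The exact two-sided permutation p on log2 CPM was 0.00794, the smallest that 5 against 5 animals can give. With the first principal component, computed from IDs that included TLR2, as a covariate the log2 fold change was 0.48 (edgeR unadjusted p = 0.00174, adjusted p = 0.638). Without non-pregnant heifers 3 and 4, which had the 2 lowest TLR2 levels, it was 0.40 (edgeR unadjusted p = 0.0154, adjusted p = 1). Over all 24 alternatives it ran from 0.40 to 0.60, with edgeR, DESeq2 or limma unadjusted p between 0.000251 and 0.0154 and adjusted p between 0.139 and 1. Since the groups did not overlap, leaving out animals could not turn the direction. In RefSeq's ARS-UCD2.0 gene table the TLR2 entry overlapped that of RNF175, while CD14 and TLR4 overlapped no other entry. The labels do not say how reads in a shared stretch were counted, so the TLR2 count is uncertain to that extent.

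TLR4, the lipopolysaccharide receptor, was counted between 872 and 1924 times per library. In pregnant heifers 1 to 5 it stood at 74.9, 100.9, 68.1, 66.1 and 90.7 CPM. In non-pregnant heifers 1 to 5 it stood at 80.6, 53.5, 56.1, 59.0 and 103.6 CPM. The highest level of all 10 belonged to non-pregnant heifer 5, and the 3 lowest to non-pregnant heifers 2, 3 and 4. The pregnant group averaged 80.1 ± 15.1 CPM and the non-pregnant group 70.6 ± 21.4 CPM (SD, n = 5 each). The log2 fold change was 0.18 (SE 0.20, 95% interval -0.24 to 0.60; edgeR unadjusted p = 0.365, adjusted p = 0.999). The exact two-sided permutation p on log2 CPM was 0.341. A higher level in pregnant heifers of up to 1.52-fold, or a lower one down to 0.849-fold, lay within the interval. The value shifted with single animals, from 0.08 without pregnant heifer 2 to 0.36 without non-pregnant heifer 5. Leaving out heifer 2 of both groups, the pair apart on the second component, gave 0.0055, and leaving out non-pregnant heifers 3 and 4 gave 0.0125.

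**Figure D1:**
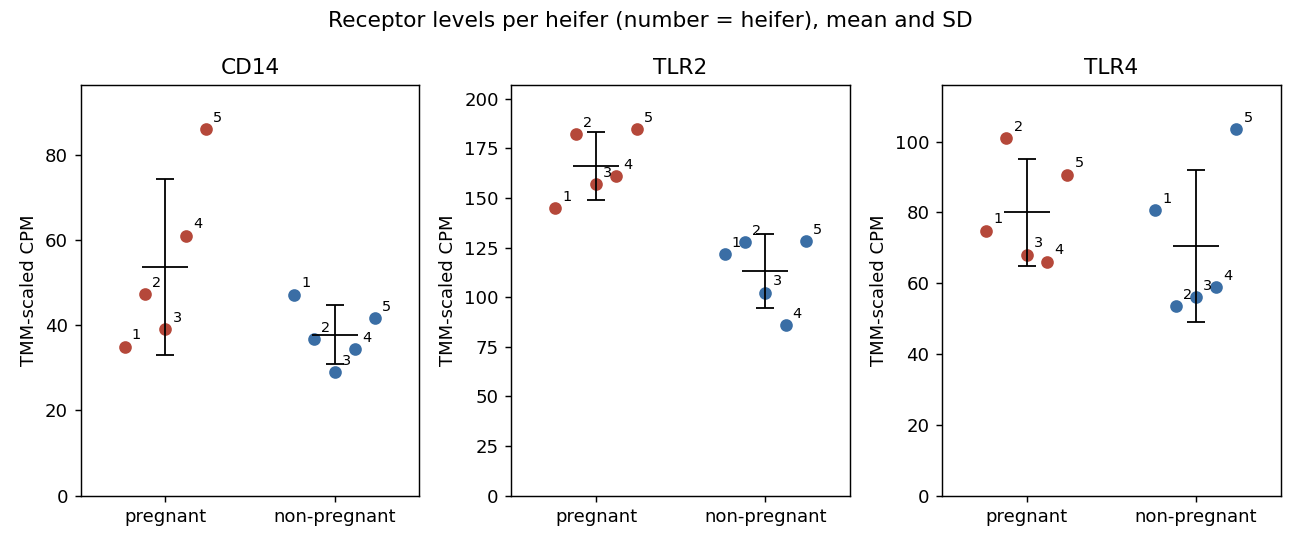
Levels of CD14, TLR2 and TLR4 in TMM-scaled CPM (vertical axes, from 0) in pregnant and non-pregnant heifers; each point is 1 animal with its number, and the bar and whiskers are the mean and SD of 5. Pregnant heifers lie above all non-pregnant ones for TLR2 (at least 144.9 against at most 128 CPM), while the groups overlap for CD14 and TLR4.

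**Figure D2:**
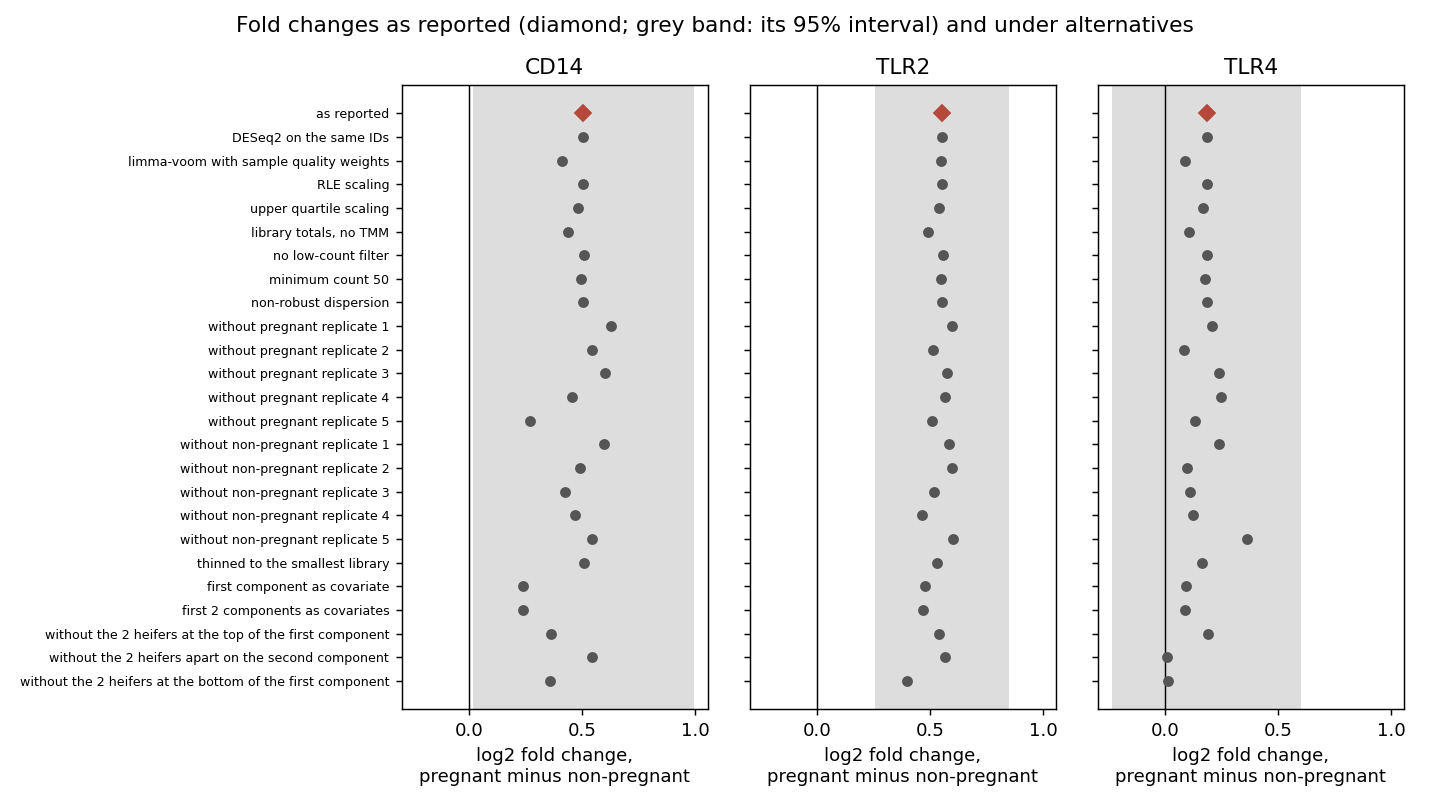
Log2 fold change of each receptor, pregnant minus non-pregnant (horizontal axes), as reported (diamond, with its 95% interval as a grey band) and under 24 alternatives (points). TLR2 lies between 0.40 and 0.60, and TLR4 between 0.0055 and 0.36. CD14 drops to 0.27 without pregnant heifer 5 and to 0.24 with the first component, computed from IDs that included CD14, as covariate.

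Animals of a group differed most for CD14 in the pregnant and for TLR4 in the non-pregnant group. As a measure of precision, counting error alone gives a coefficient of variation of 2.50% to 4.71% for CD14, 1.70% to 2.77% for TLR2 and 2.28% to 3.39% for TLR4, depending on the library. The coefficient of variation of CD14 was 38.5% among pregnant and 18.3% among non-pregnant heifers. That of TLR2 was 10.3% and 16.3%, and that of TLR4 was 18.9% and 30.3%. The highest CD14 levels in the pregnant group were those of heifers 4 and 5, and the highest TLR4 levels in the non-pregnant group those of heifers 1 and 5. From the lowest to the highest animal the level rose 2.96-fold for CD14, 2.15-fold for TLR2 and 1.94-fold for TLR4.

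Set beside other genes of like abundance, CD14 and TLR4 were among the more variable and TLR2 was not. The biological coefficient of variation, edgeR's estimate of the spread between animals of a group beyond counting error, was 26.5% for CD14. Its median was 20.4% over the 2234 IDs within 0.5 log2 CPM of CD14, 85.8% of which had a lower value. TLR2 had 17.5%, beside a median of 18.7% over 1204 IDs, 34.4% of which were lower. TLR4 had 23.1%, beside a median of 19.4% over 1834 IDs, 78.0% of which were lower. These shares describe the libraries and were not tested.

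The same heifers tended to be high or low for all 3 receptors, with clear exceptions. Ranked from the highest level, pregnant heifer 5 was 1 of 10 for CD14, 1 for TLR2 and 3 for TLR4, and pregnant heifer 2 was 3, 2 and 2. Non-pregnant heifer 3 was 10, 9 and 9, and non-pregnant heifer 4 was 9, 10 and 8. The order came apart in pregnant heifer 4, which ranked 2 for CD14 and 3 for TLR2 but 7 for TLR4. It also came apart in non-pregnant heifer 5, which ranked 1 for TLR4 but 5 for CD14 and 6 for TLR2. Non-pregnant heifer 1 ranked 4 for CD14 and TLR4 but 8 for TLR2.

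Covariation over the 10 heifers was positive for each pair on log2 CPM. Pearson's r and Spearman's rho were adjusted separately, each over the 3 pairs, and 1 case passed, by rank. No adjustment was made over both statistics together. For CD14 with TLR2, Pearson's r was 0.698 (permutation p = 0.0248, adjusted 0.0743) and Spearman's rho 0.794 (permutation p = 0.00889, adjusted 0.0267). Without pregnant heifers 4 and 5, whose CD14 lay farthest from the median, r was 0.588 over the 8 animals left (exact permutation, unadjusted p = 0.122). With single animals left out, r ran from 0.623, without pregnant heifer 5, to 0.746, without pregnant heifer 1, and was 0.631 without non-pregnant heifer 3. Both genes were higher on average in pregnant animals, and as deviations from the group means r was 0.569 and rho 0.648, with adjusted permutation p of 0.137 and 0.148. Within groups of 5, r came to 0.731 among the pregnant and 0.601 among the non-pregnant animals, which was not tested. The adjusted p of rho exceeded 0.05 when any one of 4 animals was left out: 0.0934 without pregnant heifer 2, 0.111 without pregnant heifer 5, and 0.0934 without either non-pregnant heifer 3 or 4 (exact permutation). Without both of the latter, rho was 0.619 (exact permutation p = 0.115, adjusted 0.345).

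CD14 with TLR4 had r = 0.507 (permutation p = 0.136, adjusted 0.136) and rho = 0.600 (permutation p = 0.0732, adjusted 0.11). Without pregnant heifers 4 and 5, r was 0.750 (exact permutation p = 0.0343, not adjusted over the 3 pairs). Pregnant heifer 4, with much CD14 and little TLR4, ran against the relation, and without it rho was 0.750 (exact permutation p = 0.0255, adjusted 0.0467). Within groups of 5, r came to 0.305 among the pregnant and 0.711 among the non-pregnant animals. As deviations from the group means, r was 0.418 and rho 0.297, with adjusted permutation p of 0.229 and 0.406. Without non-pregnant heifers 3 and 4, r was 0.302 and rho 0.333 (exact permutation, adjusted p = 0.476 and 0.619).

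TLR2 with TLR4 had r = 0.563 (permutation p = 0.0921, adjusted 0.136) and rho = 0.527 (permutation p = 0.121, adjusted 0.121). Without non-pregnant heifer 4 and pregnant heifer 5, whose TLR2 lay farthest from the median, r was 0.417 (exact permutation, unadjusted p = 0.304). Within groups of 5, r came to 0.772 among the pregnant and 0.481 among the non-pregnant animals. As deviations from the group means, r was 0.562 and rho 0.333, with adjusted permutation p of 0.137 and 0.406. Without non-pregnant heifers 3 and 4, r was 0.289 and rho 0.214 (exact permutation, adjusted p = 0.476 and 0.619). Non-pregnant heifer 5, with the most TLR4 of all and middling TLR2, lay off the trend.

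**Figure D3:**
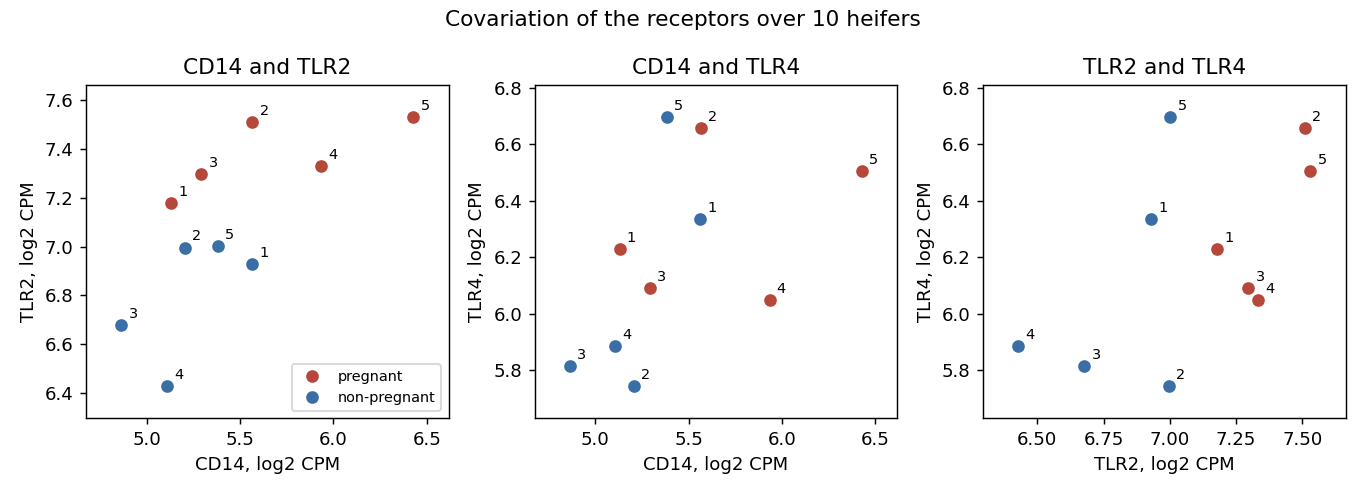
Log2 CPM of each pair of receptors over the 10 heifers; each point is 1 animal with its number, coloured by pregnancy status. CD14 and TLR2 rise together by rank (rho = 0.794), pregnant heifer 4 falls off the trend of CD14 with TLR4, and non-pregnant heifer 5 lies above that of TLR2 with TLR4.

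The receptors' correlations with each other were matched or exceeded by many other gene IDs. Of the 14164 other IDs, 6.50% had a higher r with CD14 than TLR2 had, and 17.6% a higher one than TLR4 had. With TLR2, 2.92% had a higher r than CD14 and 8.91% a higher one than TLR4. With TLR4, 8.69% had a higher r than CD14 and 5.98% a higher one than TLR2. The median r over all IDs was 0.0034 with CD14, -0.0069 with TLR2 and 0.0062 with TLR4. An r above 0.8 was reached by 321 IDs with CD14, 101 with TLR2 and 63 with TLR4, and no receptor pair was among them.

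**Figure D4:**
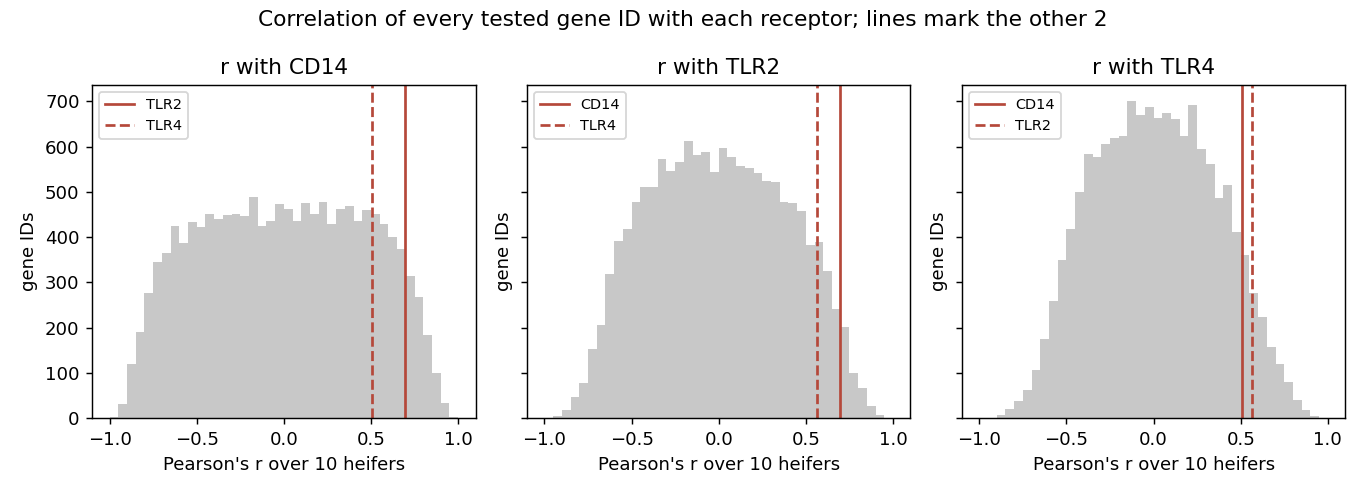
Number of gene IDs (vertical axis) by Pearson's r with CD14, TLR2 and TLR4 over the 10 heifers (horizontal axes), with lines at the r of the other 2 receptors. The lines lie in the upper part of each distribution, with between 2.92% and 17.6% of IDs beyond them.

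Depth and the main direction of variation moved with the receptors. CD14 rose with the library total, with r = 0.716 (permutation p = 0.0151, adjusted 0.0453 over 3 relations) and rho = 0.867 (permutation p = 0.00201, adjusted 0.00603). TLR2 had r = 0.641 and rho = 0.600 (permutation p = 0.0482 and 0.0737, adjusted 0.0551 and 0.0737). TLR4 had r = 0.629 and rho = 0.661 (permutation p = 0.0551 and 0.0432, adjusted 0.0551 and 0.0648). Within the groups of 5, CD14 had r = 0.577 in pregnant and 0.942 in non-pregnant heifers, TLR2 0.809 and 0.633, and TLR4 0.715 and 0.517. With the 2 most extreme totals left out, those of pregnant heifer 2 and non-pregnant heifer 1, r was 0.915 for CD14, 0.752 for TLR2 and 0.473 for TLR4. With the counts of every library thinned at random to the smallest total, r with the original totals was 0.704 for CD14, 0.632 for TLR2 and 0.6225 for TLR4. The adjusted permutation p was then 0.0552, 0.0584 and 0.0584. Why the receptors moved with the library total was not tested.

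The call of Pearson's r for CD14 with the library total was lost on thinning, and it depended on the scaling and on single animals. Spearman's rho was not tested again under these alternatives. Thinning left the order of the 10 heifers by CD14 unchanged, and so rho too. With library totals unscaled by TMM, r was 0.602 for CD14 (permutation, adjusted p = 0.19), 0.471 for TLR2 and 0.428 for TLR4 (permutation, adjusted p = 0.218 for both). On linear CPM, r for CD14 was 0.628 (permutation, adjusted p = 0.0613). Without non-pregnant heifers 3 and 4, r was 0.570 for CD14, 0.337 for TLR2 and 0.438 for TLR4 (exact permutation, adjusted p = 0.40 for each). On log2 CPM, the adjusted p of r for CD14 lay between 0.0652 and 0.131 (exact permutation) when pregnant heifer 1 or 4, or non-pregnant heifer 2, 3 or 4, was left out. For TLR2 it fell to 0.0387 without pregnant heifer 3 and 0.0272 without non-pregnant heifer 1, and for TLR4 to 0.0386 without non-pregnant heifer 5 (exact permutation). The first principal component, which held 24.7% of the variance of all tested IDs, had r = 0.876 with CD14, 0.610 with TLR2 and 0.543 with TLR4 over the 10 animals, as a description. As residuals after that component, r between receptors was 0.428 for CD14 with TLR2, 0.0775 for CD14 with TLR4 and 0.348 for TLR2 with TLR4. The part of monocyte or neutrophil share in the covariation was not tested, since no blood counts were used and the files pair no further ID with a marker gene.

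Ratios between receptors within a library need no scaling of library totals, and none differed between the groups past the threshold. Since the genes differ in length, a ratio is compared between animals and says nothing of which transcript is more abundant. In pregnant heifers 1 to 5 the counts of CD14 were 0.241, 0.259, 0.249, 0.379 and 0.465 of those of TLR2. In non-pregnant heifers 1 to 5 they were 0.387, 0.289, 0.284, 0.399 and 0.325 of them. The pregnant group thus held 3 animals below and 1 above the whole non-pregnant range. The log2 ratio averaged -1.70 ± 0.42 in the pregnant and -1.58 ± 0.23 in the non-pregnant group (SD, n = 5 each), differing by -0.12 (exact two-sided permutation p = 0.603, adjusted 0.603 over the 3 ratios). With single animals left out it ran from -0.27, without pregnant heifer 5, to -0.030, without pregnant heifer 1.

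The ratio of CD14 to TLR4 ran from 0.467 to 0.948 in pregnant and from 0.401 to 0.688 in non-pregnant heifers. Pregnant heifers 4 and 5, at 0.923 and 0.948, lay above all others. The mean log2 ratio was -0.64 ± 0.51 against -0.87 ± 0.29 (SD, n = 5 each), a difference of 0.23 (exact two-sided permutation p = 0.405, adjusted 0.603). With single animals left out it ran from 0.094, without pregnant heifer 5, to 0.35, without pregnant heifer 1 or 2.

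TLR2 was counted 1.93, 1.81, 2.31, 2.44 and 2.04 times as often as TLR4 in pregnant heifers 1 to 5. In non-pregnant heifers 1 to 5 it was counted 1.51, 2.39, 1.82, 1.46 and 1.24 times as often. Non-pregnant heifers 1, 4 and 5 lay below every pregnant animal, and non-pregnant heifer 2 lay near the top of the pregnant range. The log2 ratio averaged 1.06 ± 0.18 in the pregnant and 0.71 ± 0.36 in the non-pregnant group (SD, n = 5 each), differing by 0.35 (exact two-sided permutation p = 0.0873, adjusted 0.262). Without non-pregnant heifer 2 the difference was 0.49 (exact permutation p = 0.0159, adjusted 0.0476). The 2 receptors' differences between the groups were thus not shown to be unequal in the full set of animals.

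**Figure D5:**
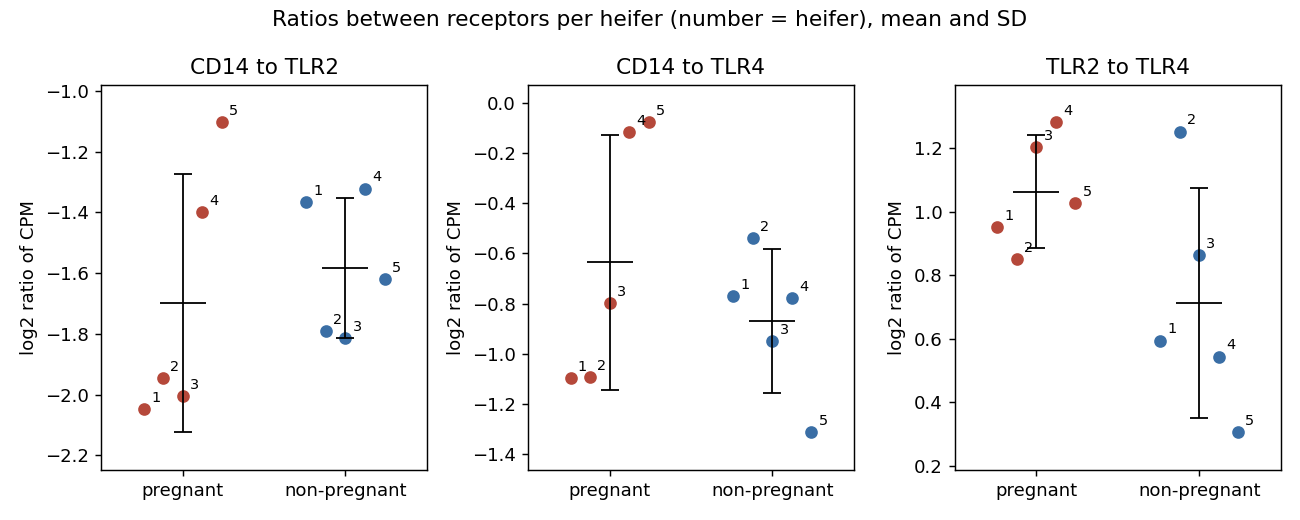
Log2 ratio of CPM between receptors (vertical axes) in pregnant and non-pregnant heifers; each point is 1 animal with its number, and the bar and whiskers are the mean and SD of 5. The group means differ by -0.12, 0.23 and 0.35 for CD14 to TLR2, CD14 to TLR4 and TLR2 to TLR4, with overlapping animals in each.

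The IDs most like the 3 receptors were sought by Pearson's r with the mean of their standardised log2 CPM over the 10 heifers. That mean was highest in pregnant heifers 5 and 2 (1.43 and 0.930) and lowest in non-pregnant heifers 3 and 4 (-1.19 and -1.18). ENSBTAG00000021678 came first with r = 0.942 and rho = 0.879, and with r of 0.869 to CD14, 0.841 to TLR2 and 0.698 to TLR4. It ran from 26.7 to 59.2 CPM, averaging 45.7 ± 8.34 CPM over the pregnant and 32.9 ± 4.77 CPM over the non-pregnant group (SD, n = 5 each). ENSBTAG00000001627 followed with r = 0.937 and rho = 0.964, at the low level of 0.592 to 1.83 CPM. At the other end were ENSBTAG00000046529 with r = -0.966 and rho = -0.964, and ENSBTAG00000017239 with r = -0.925 and rho = -0.939. These ran from 3.28 to 7.96 CPM and from 1.29 to 8.50 CPM. The 4 IDs are the extremes of all those tested, so their r values are given as a description, and the files pair them with no gene name.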

How the data were processed

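Total RNA of peripheral white blood cells was sequenced on an Illumina HiSeq instrument, per the labels' protocols. Trim Galore 0.4.4, FastQC 0.11.7, HTSeq, HISAT2 and the build ARS-UCD1.2 are listed, per the submitters' processing notes; no annotation release, strand setting or rule for multi-mapping reads is stated there. The authors deposited raw read counts per Ensembl gene ID, per the file headers. The RefSeq table (ARS-UCD2.0) carried an Ensembl ID for 0 of its genes, so pathway lists, white blood cell markers, promoter motifs, proteins and positions were not analysed here. The receptors and lists were chosen with earlier results of these data known.

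IDs were kept by filterByExpr (minimum count 10, minimum total 15; at least 99.8% of any library's counts), scaled by TMM and tested by edgeR 4.0.16's robust quasi-likelihood test (R 4.3.3) over all 10 libraries, with Benjamini-Hochberg adjustment over all IDs. The fold change estimates of the fit, not its calls, were checked on simulated counts drawn independently for each gene. The standard error is the log2 fold change over the square root of F. Log2 CPM used a prior count of 2. Correlations were tested by 100000 permutations, or exactly below 10 animals, and ratios over all 252 assignments. Alternatives were DESeq2 1.42.0, limma 3.58.1 (voom with quality weights), 3 scalings, 2 filters, non-robust dispersion, another prior count, linear CPM, deviations from group means and each animal left out. Thinning, components as covariates, pairs of libraries left out, relations to library totals, and alternatives for these and for rank correlations were chosen after seeing the data. Each library is a separate heifer, and no 2 of a group agreed within sampling noise. The genes named are the 3 receptors and the 2 IDs at each end of the likeness ranking.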

Additional observations from a re-analysis of the deposited data

How the results depend on the processing

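The log2 fold changes of the 3 receptors kept their sign and stayed uncalled in all 24 alternatives: 0.24 to 0.63 for CD14, 0.40 to 0.60 for TLR2 and 0.0055 to 0.36 for TLR4. The count of 0 called IDs became 9 with DESeq2 (the cause was not tested) and was 0 in the other 23, with 0 to 0 when single animals were left out. Pearson's r of the 3 pairs stayed positive and past no adjusted threshold in all 19 alternatives. Spearman's rho of CD14 with TLR2 (0.794) lost its call with library totals unscaled (0.697), as residuals after the first component (0.479), as deviations from the group means (0.648), and, with fewer samples, without the 2 heifers apart on the second component (0.762) or non-pregnant heifers 3 and 4 (0.619); with single animals left out it ranged from 0.717 to 0.883. The rank correlation of CD14 with TLR4 turned to -0.0545 as residuals after the first component, and ranged from 0.50 to 0.750 with single animals left out, where it passed the threshold only without pregnant heifer 4. The causes were not tested, and the first component was itself computed from IDs that included the receptors. The log2 ratio of TLR2 to TLR4 ranged from 0.25 to 0.49 with single animals left out and was called only without non-pregnant heifer 2; the other ratios kept their sign and stayed uncalled in all 14 alternatives, from -0.27 to -0.030 for CD14 to TLR2 and from 0.094 to 0.43 for CD14 to TLR4. No paired analysis was possible because the labels link no animals between the groups. Every library held at least 451 counts of each receptor; whether depth or the number of animals limits the tests more was not compared.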
